A study of Mus musculus with 158 samples.

Results

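RNA-seq of B6xPWK was compared with RNA-seq of B6xC3H in 9 libraries, chosen by their labels as every RNA-seq sample of these 2 hybrids. They were 9 of the 17 RNA-seq samples and of the 158 samples of the series, which otherwise maps open chromatin by DNase-seq in F1 hybrid mice. 2 instruments and 2 read lengths were used, which the sources do not tie to libraries. B6xPWK animals were F1 offspring of C57BL/6J females and PWK/PhJ males, and gave 5 libraries, 2 of B cells and 1 each of lung, kidney and liver. B6xC3H animals were F1 females of C57BL/6J and C3H/HeJ bought from a supplier, and gave 4 libraries, 1 for each of the same 4 tissues. All animals were 8 weeks old. B cells came from femoral marrow of females by depletion of cells with CD43 or Mac-1/CD11b, and liver, kidney and lung were whole organs, for which the labels give no sex. Neither labels nor methods tie libraries to animals, and solid tissues of several mice were typically pooled to isolate nuclei, which is not stated for RNA. Libraries of 1 hybrid may thus share an animal, and p-values then measure only the spread between these libraries. The 7 B6xSPRET libraries, from F1 offspring of C57BL/6J and SPRET/EiJ with the same tissues, helped to estimate the spread between libraries and are given as a further level. 1 further RNA-seq library, whose strain differs between sources, was not used.

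An F1 hybrid carries 1 chromosome set from each parental strain, so both groups had a complete C57BL/6J set and differed in the set from the other parent. PWK/PhJ is a wild-derived inbred strain of Mus musculus musculus, while C3H/HeJ is a classical laboratory strain whose genome is mostly of Mus musculus domesticus descent, like that of C57BL/6J. Inherited differences in RNA level between strains can lie in regulatory sequence near a gene, in the transcribed sequence itself, or in the presence and number of gene copies, and tandem families of immune genes and pseudogenes are where strains of mice often differ. The values here are CPM, that is the expected count that RSEM assigned to a gene as a share of the library's TMM-scaled total, on a scale common to all libraries, and they are levels of the counted strand, not lengths of transcript per gene.

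The libraries were stranded, and the deposited tables appear to hold the strand opposite to the transcripts. In 9 of 9 libraries Tsix exceeded Xist, its partner on the other strand (555 to 3428 counts against 6 to 450.0). Alb, the most abundant messenger RNA of liver, had 389 and 767 counts in the 2 liver libraries, and genes with an exon on the opposite strand of another gene held 73.8 to 88.0% of all counts. A value of a gene with an exon on the opposite strand may therefore belong to that other gene, which is named for each called gene. Where no gene is annotated opposite, the counts may likewise not be of the gene's own transcript, and their origin was not tested. Summed over 10 liver marker genes, liver libraries had 4401 (B6xPWK) and 8492 CPM (B6xC3H), against at most 35.2 CPM in the other 7 libraries of these hybrids. Genes opposite the kidney markers held 20682 and 12495 CPM in the 2 kidney libraries and at most 6.55 CPM elsewhere, and those opposite the B cell markers held 3362 to 6028 CPM in B cells and at most 224 CPM elsewhere. The lung markers summed to 150.04 and 431 CPM in lung and at most 57.3 CPM elsewhere, while the 3 genes opposite lung markers did not follow lung, with 527 and 1143 CPM there and 3448 and 3242 CPM in kidney.

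The 9 libraries held 316123 to 809317 counts each. Within tissues, B6xPWK libraries had 0.824 times the total of B6xC3H libraries, lower in 4 of 4 tissues (exact permutation test within tissues, two-sided, p = 0.042, the smallest that 24 assignments can give). The gap lay mostly in B cells, with 381139 and 448131 counts in B6xPWK against 809317 in B6xC3H. It was small in lung (380096 against 387481), liver (316123 against 322241) and kidney (516117 against 551255). The B6xC3H B cell library stood apart. It was the deepest, its log2 CPM values correlated with those of the other 3 B cell libraries at 0.897 to 0.923 against 0.930 to 0.952 among those, and 3.85% of its counts lay on 24 genes opposite histone genes against 1.02 to 2.09% in the other B cell libraries. Of the 58 genes called below, 26 also passed without it, and the others are named with their adjusted p without it. The B6xPWK lung library also stood apart. Its log2 CPM values correlated with those of the other lung libraries at 0.876 to 0.890, against 0.913 to 0.941 among those. Its share of counts on genes with an exon opposite, 73.8%, was the lowest of the 16 libraries. Without the B6xPWK lung library 36 of the 58 passed, and the genes lost are not marked below. All B6xPWK libraries carry lower library numbers than all B6xC3H libraries, so this number, a sample ID of which the sources give no order or date, and the hybrid cannot be told apart within the 9 libraries. The B6xSPRET numbers lie above every B6xPWK number and, in all but 1 library, below every B6xC3H number. Over the 16 libraries the number was fitted as a covariate coded as low or high. All B6xPWK libraries were low and all B6xC3H libraries high. Only the B6xSPRET libraries, which held both levels, thus separated this covariate from the hybrid.

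Across tissues, few genes differed between the hybrids. Of 4976 genes tested, 58 (1.17%) passed an adjusted p of 0.05, of which 36 (0.723%) were higher in B6xPWK and 22 (0.442%) lower. The absolute log2 fold change of the 36 ran from 1.38 to 6.58 (median 2.60), and that of the 22 from 1.22 to 4.26 (median 2.21). The median over all genes tested was -0.01. At an unadjusted p under 0.05 there were 601 genes (12.1%). The difference had 1 sign in all 4 tissues for 29 of the 36 and 16 of the 22, against 13.9% of all genes tested. Every B6xPWK library lay above every B6xC3H library for 14 of the 36 (0.623% of genes tested), and below for 4 of the 22 (0.201%). The test on these same counts favors genes with a like difference in each tissue, so these shares are a description and no further support. With the library number as a covariate, 12 genes passed, 8 of them among the 58, and all 58 kept their sign. In bulk tissue, fewer cells of a type and less RNA per cell cannot be told apart, so each difference is one of the whole sample.

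**Figure D1:**
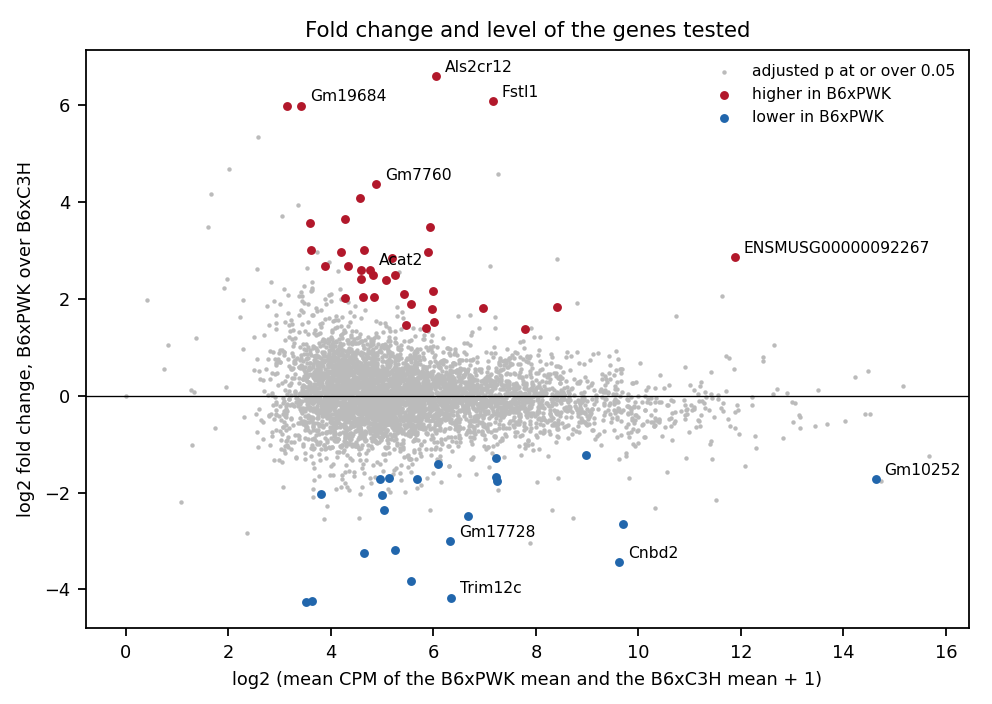
Log2 fold change of B6xPWK over B6xC3H (y axis) against the mean level in both hybrids as log2 of CPM plus 1 (x axis) for the 4976 genes tested, each point 1 gene. The 36 red and 22 blue points passed an adjusted p of 0.05, with Als2cr12 and Fstl1 highest at 6.58 and 6.07 and Gm10252 and ENSMUSG00000092267 the most abundant.

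3 genes passed in the 16-library fit and in each of the 19 alternative fits on single genes. The first was Als2cr12, which encodes a protein and lies on the reverse strand of chr1:58646903-58695989 (mm10). Its exons overlap the pseudogene Cbx3-ps7 on the forward strand, and Gm20257 also lies opposite. Read as the other strand, its counts may be of Cbx3-ps7. A pseudogene can share reads with related sequences, which was not tested here. Als2cr12 had 68.7 and 123 CPM in B cells, 100.03 in lung, 149.7 in kidney and 204 in liver in B6xPWK. It had 1.05 CPM in B cells, 1.93 in lung, 0 in kidney and 0 in liver in B6xC3H, 2 counts in all. The groups did not overlap in any tissue. The 7 B6xSPRET libraries lay between 107 and 188 CPM (median 135), in the range of B6xPWK. The log2 fold change was 6.58 ± 0.54 (SE, adjusted p = 7.3e-09), and the ratio of summed counts per TMM-scaled total was 118, with a 95% counting interval of 32.4 to 980.3, which covers counting error only. Without the B6xC3H B cell library the log2 fold change was 6.78 (adjusted p = 7.8e-08).

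Fstl1 encodes follistatin-like 1, a secreted glycoprotein of mesenchymal cells. It lies on the forward strand of chr16:37776873-37836514, and no gene is annotated opposite to it, so the origin of its counts is uncertain. B6xPWK had 369 and 349 CPM in B cells, 459 in lung, 185 in kidney and 26.1 in liver. B6xC3H had 0 CPM in B cells, 15.4 in lung, 4.6 in kidney and 0 in liver, so that the lowest B6xPWK library, liver, still lay above the highest B6xC3H library. B6xSPRET lay between 0 and 19 CPM (median 3.03), near B6xC3H and below every B6xPWK library. The log2 fold change was 6.07 ± 0.53 (SE, adjusted p = 2e-08), and 5.11 (adjusted p = 7.8e-08) without the B6xC3H B cell library. In B6xPWK, Fstl1 was higher in both B cell libraries than in kidney. The 10 fibroblast markers summed to 29.5 and 46.4 CPM in B6xPWK B cells and 55.8 CPM in B6xC3H B cells. In lung they summed to 51.5 (B6xPWK) and 81.1 CPM (B6xC3H), so on the counted strand they cannot give the share of fibroblasts. Genes opposite these markers summed to 13.7 to 34.4 CPM in B6xPWK B cells and 54.7 CPM in B6xC3H B cells. In lung those held 646 and 643 CPM. The part of fibroblasts in the difference was not tested.

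Cnbd2, which encodes a protein with a cyclic nucleotide-binding domain, was lower in B6xPWK. It lies on the forward strand of chr2:156312299-156375638, and its exons overlap Gm14252 and Scand1 on the reverse strand, the latter encoding a small SCAN-domain protein. B6xPWK had 131 and 233 CPM in B cells, 24.2 in lung, 194 in kidney and 88.7 in liver. B6xC3H had 3761 CPM in B cells, 274 in lung, 951 in kidney and 746 in liver. Each B6xPWK library lay below each B6xC3H library, and B6xSPRET lay between 257 and 2305 CPM (median 804), mostly in the range of B6xC3H. Cnbd2 had a log2 fold change of -3.44 ± 0.34 (SE, adjusted p = 1.9e-07), and -3.04 (adjusted p = 6e-07) without the B6xC3H B cell library, which had the highest value.

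6 more genes without overlap between the hybrids passed in 18 of 19 alternative fits and did not pass with the library number as a covariate. They were Trim12c, Gm7760, Gm17728, Acat2, Gm42031 and Tagap1. Trim12c, of the tripartite-motif family of antiviral proteins, lies on the reverse strand of chr7:104338754-104353362 with no gene opposite. It had 15.5 and 31.1 CPM in B cells, 6.06 in lung, 0 in kidney and 0 in liver in B6xPWK. In B6xC3H it had 168 CPM in B cells, 174 in lung, 96.5 in kidney and 157 in liver, a narrow range, while B6xSPRET lay between 0 and 23.7 CPM (median 2.58). Its log2 fold change was -4.17 ± 0.52 (SE, adjusted p = 1.5e-05). With the library number as a covariate it was -1.97 (adjusted p = 1). For the other 5 genes that fit gave log2 fold changes of 2.52 (adjusted p = 0.073) for Acat2, 2.23 (adjusted p = 0.58) for Gm42031, 3.03 (adjusted p = 0.57) for Gm7760, -2.07 (adjusted p = 0.39) for Gm17728 and 1.59 (adjusted p = 0.73) for Tagap1, so the value of Trim12c moved most while those of Acat2 and Gm42031 stayed within their SE of the fit without the number. Trim12c lies in a tandem cluster of related Trim genes, between which RSEM divides reads, so the share of this copy is uncertain.

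Gm7760, a processed pseudogene on chromosome 8 with no gene opposite, had 30.9 and 42.6 CPM in B cells, 86.4 in lung, 52.9 in kidney and 57.4 in liver in B6xPWK. In B6xC3H it had 0 CPM in B cells, 5.79 in lung, 4.6 in kidney and 0 in liver, and B6xSPRET lay between 0 and 30.5 CPM (median 11.4), below every B6xPWK library. Its log2 fold change was 4.36 ± 0.61 (SE, adjusted p = 0.00011). As a copy of another gene, a processed pseudogene can take reads of its parent gene.

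Acat2, the cytosolic acetoacetyl-CoA thiolase of the sterol pathway, lies on the reverse strand of chr17:12942890-12960747 with no gene opposite in this annotation. B6xPWK had 22.3 and 45.9 CPM in B cells, 22.7 in lung, 61.7 in kidney and 73.1 in liver. B6xC3H had 5.26 CPM in B cells, 3.86 in lung, 11.5 in kidney and 6.84 in liver. The lowest of B6xPWK was above the highest of B6xC3H, and B6xSPRET lay between 38 and 148 CPM (median 64.6), above every B6xC3H library. Acat2 had a log2 fold change of 2.60 ± 0.42 (SE, adjusted p = 0.00094). None of the 6 tested members of the sterol and fatty acid synthesis list, which did not hold Acat2, passed (log2 fold changes -0.48 to 0.50), nor did any of 7 genes opposite such members.

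Gm17728, on the forward strand of chr17:9422060-9422458 opposite Gm17748, was lower in B6xPWK. It had 15.5 and 34.4 CPM in B cells, 12.1 in lung, 15.4 in kidney and 5.22 in liver in B6xPWK. It had 194 CPM in B cells, 67.6 in lung, 170.0 in kidney and 137 in liver in B6xC3H. B6xSPRET lay between 60.9 and 589 CPM (median 106), above every B6xPWK library. Its log2 fold change was -3.002 ± 0.47 (SE, adjusted p = 0.00063).

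**Figure D2:**
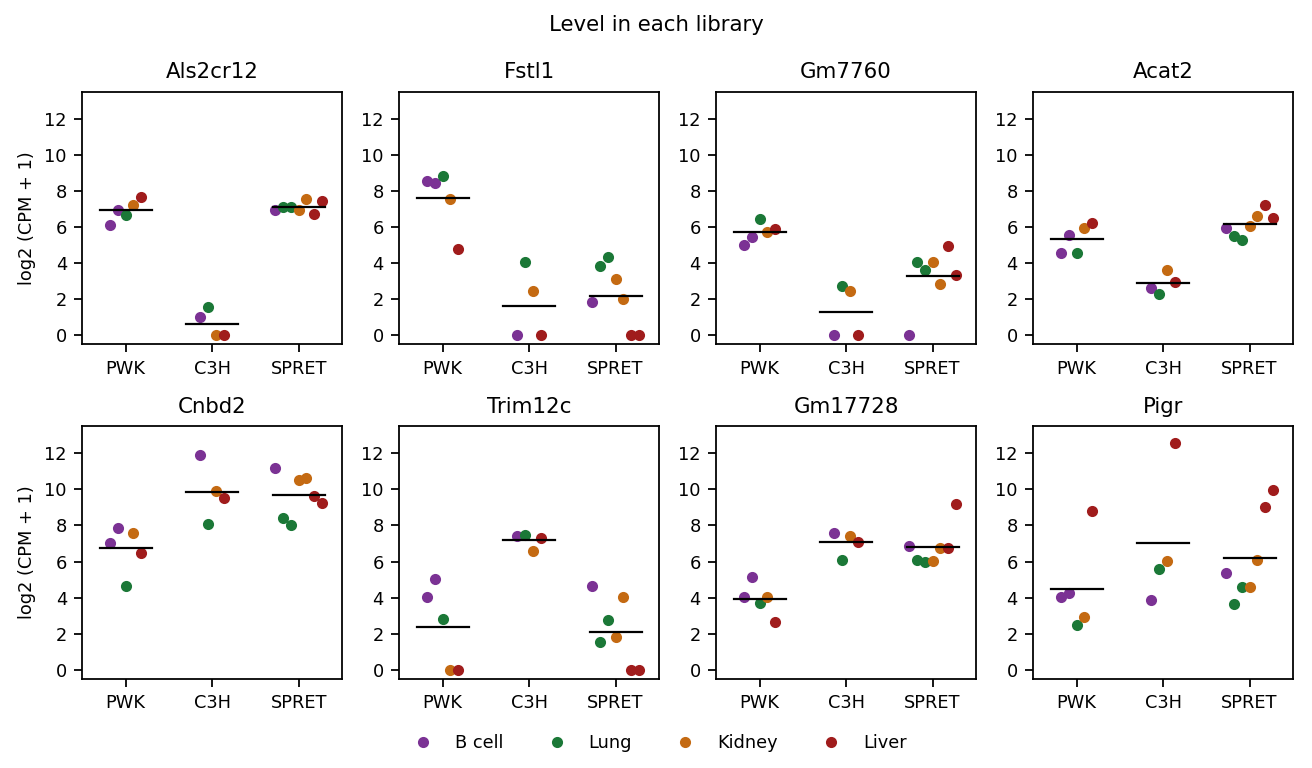
Level of 8 genes as log2 of CPM plus 1 (y axis) in each library of B6xPWK (n = 5), B6xC3H (n = 4) and B6xSPRET (n = 7), colored by tissue, with a line at the mean of the log2 values of each hybrid. Als2cr12, Fstl1, Gm7760 and Acat2 do not overlap between B6xPWK and B6xC3H, nor do Cnbd2, Trim12c and Gm17728, while Pigr overlaps and is highest in the liver libraries.

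RefSeq promoter windows of GRCm38.p6, 250 bases before to 50 after the start, were at hand for 28 of the 58 genes and for 18 of 40 genes with exons opposite to them. 6 are shown, 2 for genes with no gene opposite that were higher in B6xPWK (Fstl1, Acat2), 1 that was lower (Trim12c), and 3 for the gene opposite a called one of which the counts may be (Scand1 opposite Cnbd2, Trim34a opposite Gm47248, Ftl1 opposite Gm10252). Each is the C57BL/6J reference, read 5′ to 3′ in the direction of transcription. Capitals mark exact matches on either strand to 6 short motifs. The GC box was searched as GGGCGG, the CCAAT box as its name, the TATA box as TATAAA and the E box as CACGTG. The core of ETS sites was searched as CCGGAA, and the AP-1 site as TGACTCA.
Fstl1, chr16:37776805-37777104, forward strand: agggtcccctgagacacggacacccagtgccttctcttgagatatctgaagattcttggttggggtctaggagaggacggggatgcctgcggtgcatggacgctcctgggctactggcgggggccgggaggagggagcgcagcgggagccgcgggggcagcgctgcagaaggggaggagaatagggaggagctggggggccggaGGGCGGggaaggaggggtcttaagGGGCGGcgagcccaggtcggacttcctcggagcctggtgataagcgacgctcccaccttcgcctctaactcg
Acat2, chr17:12960676-12960975, reverse strand: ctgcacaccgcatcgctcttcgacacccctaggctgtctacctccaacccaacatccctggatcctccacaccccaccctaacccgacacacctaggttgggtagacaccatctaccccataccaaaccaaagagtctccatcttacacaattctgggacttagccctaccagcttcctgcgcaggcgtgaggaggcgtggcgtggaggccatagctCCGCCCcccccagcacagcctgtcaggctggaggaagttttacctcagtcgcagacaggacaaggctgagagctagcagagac
Trim12c, chr7:104353300-104353599, reverse strand: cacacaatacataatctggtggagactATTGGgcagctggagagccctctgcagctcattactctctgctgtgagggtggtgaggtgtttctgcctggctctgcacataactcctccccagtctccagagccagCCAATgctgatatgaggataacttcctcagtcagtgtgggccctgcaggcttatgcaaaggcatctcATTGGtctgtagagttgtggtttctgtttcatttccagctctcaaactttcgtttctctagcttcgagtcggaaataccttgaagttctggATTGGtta
Scand1, chr2:156312655-156312954, reverse strand: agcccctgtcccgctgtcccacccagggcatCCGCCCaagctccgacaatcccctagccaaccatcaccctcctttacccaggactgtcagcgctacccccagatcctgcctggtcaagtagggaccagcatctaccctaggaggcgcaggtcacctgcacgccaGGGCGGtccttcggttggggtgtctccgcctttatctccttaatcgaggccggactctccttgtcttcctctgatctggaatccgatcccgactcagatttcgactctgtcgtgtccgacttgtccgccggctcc
Trim34a, chr7:104244207-104244506, forward strand: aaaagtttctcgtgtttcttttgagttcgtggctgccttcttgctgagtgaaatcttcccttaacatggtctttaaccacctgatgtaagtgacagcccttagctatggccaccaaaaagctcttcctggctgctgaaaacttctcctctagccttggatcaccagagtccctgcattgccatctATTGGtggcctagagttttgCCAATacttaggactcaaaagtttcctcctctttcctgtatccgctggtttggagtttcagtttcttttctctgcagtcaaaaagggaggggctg
Ftl1, chr7:45459837-45460136, reverse strand: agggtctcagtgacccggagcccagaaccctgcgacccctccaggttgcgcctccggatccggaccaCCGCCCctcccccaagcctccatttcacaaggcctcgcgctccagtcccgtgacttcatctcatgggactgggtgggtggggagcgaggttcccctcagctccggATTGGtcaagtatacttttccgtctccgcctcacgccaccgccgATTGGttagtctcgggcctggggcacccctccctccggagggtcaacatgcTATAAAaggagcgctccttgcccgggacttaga

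The GC box letters stand in the windows of Fstl1, Acat2, Scand1 and Ftl1, the CCAAT letters in those of Trim12c, Trim34a and Ftl1, and the TATA letters in that of Ftl1. Over the matched called genes, GGGCGG was found in 11 of 19 higher and 2 of 9 lower genes, against 35.7% of 32851 promoter windows, and CCAAT in 2 of 19 and 5 of 9 against 37.4%. CACGTG was found in 0 of 19 and 3 of 9 against 7.15%, CCGGAA in 3 and 0 against 14.9%, TATAAA in 1 and 0 against 13.6% and TGACTCA in 1 and 0 against 5.20%. A match is a run of letters in the reference and does not show binding, and the PWK/PhJ and C3H/HeJ sequences were not used here.

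Gm19684 and Obox8 had no count in any B6xC3H library, so their folds are lower bounds. Gm19684 lies at chr17:36121678-36129692, forward strand, and encodes a protein, opposite Gm7030. It had 1.72 and 0 CPM in B cells, 1.52 in lung, 83.7 in kidney and 10.4 in liver in B6xPWK, high only in kidney and to a lesser degree in liver, with no count in 1 B cell library. Against a floor of 3 counts over the 4 B6xC3H libraries it was at least 11.5-fold higher (adjusted p = 0.0055), and in B6xSPRET kidney it had 124 and 161 CPM. With counts of opposite strands summed, that is with Gm7030, it did not pass (log2 fold change 1.93 (adjusted p = 0.42)). Obox8, of a family of oocyte homeobox genes, had 32.6 and 29.5 CPM in B cells, 16.7 in lung, 0 in kidney and 0 in liver in B6xPWK and was at least 13.1-fold higher (adjusted p = 0.013). That call was lost without the B6xC3H B cell library (adjusted p = 0.2).

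5 more genes higher in B6xPWK with no gene opposite were Vdac1, Usp53, Cacybp, Eif5 and Cyb5d2. Vdac1, a channel of the outer mitochondrial membrane, had 8.59 to 100.03 CPM in B6xPWK and 0 to 20.5 CPM in B6xC3H, and in liver the hybrids were level (20.9 and 20.5 CPM). Its log2 fold change was 4.08 ± 0.84 (SE, adjusted p = 0.014). Usp53, a member of the ubiquitin-specific peptidase family, had 26.1 to 49.8 CPM in B6xPWK and 0 to 11.6 CPM in B6xC3H, without overlap (log2 fold change 2.60 ± 0.56 (SE, adjusted p = 0.016)). Cacybp, the calcyclin-binding protein, had 20.9 to 99.7 CPM in B6xPWK and 0 to 13.8 CPM in B6xC3H and also did not overlap (log2 fold change 2.49 ± 0.55 (SE, adjusted p = 0.017)). Eif5, a translation initiation factor, had 14.7 to 39.6 CPM in B6xPWK and 5.26 to 13.7 CPM in B6xC3H, with a log2 fold change of 2.02 ± 0.52 (SE, adjusted p = 0.048). Cyb5d2, a cytochrome b5 domain protein, had 3 counts in all of B6xC3H, and its ratio of summed counts was 14.5 (95% counting interval 4.7 to 72.5, adjusted p = 0.043). Usp53, Cacybp, Eif5 and Cyb5d2 did not pass without the B6xC3H B cell library (adjusted p = 0.15, 0.24, 0.16 and 0.33). Their levels were at most 99.7 CPM.

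A second set of higher genes lies opposite an exon of another gene. Map1lc3b, the autophagy protein LC3B, lies opposite Zcchc14 and was even across B6xPWK (26.1 to 36 CPM in B6xPWK and 1.05 to 11.5 CPM in B6xC3H, log2 fold change 2.67 ± 0.59 (SE, adjusted p = 0.018)). Cox20, an assembly factor of cytochrome c oxidase, lies opposite Hnrnpu, which encodes an abundant nuclear RNA-binding protein (9.83 to 70.5 CPM in B6xPWK and 0 to 6.89 CPM in B6xC3H, 3.01 ± 0.67 (SE, adjusted p = 0.018)). Tnfaip8, a TNF-induced protein, lies opposite C030005K06Rik (15.7 to 37.4 CPM in B6xPWK and 0 to 9.19 CPM in B6xC3H, 2.67 ± 0.62 (SE, adjusted p = 0.025)). These 3 did not overlap between the hybrids. Dhx32, a DEAH-box helicase, lies opposite Bccip, which encodes a BRCA2-interacting protein (3.28 to 78.3 CPM in B6xPWK and 0 to 6.89 CPM in B6xC3H, 3.64 ± 0.86 (SE, adjusted p = 0.026)). With counts of genes overlapping on opposite strands summed, none of the 4 passed (adjusted p = 0.14, 0.58, 0.84 and 0.099), nor without the B6xC3H B cell library (adjusted p = 0.17, 0.14, 0.17 and 0.14).

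The most abundant higher gene was ENSMUSG00000092267, which has no symbol in the annotation used. It had 6139.6 and 1249.7 CPM in B cells, 9613 in lung, 12063 in kidney and 3195 in liver in B6xPWK. It had 244 CPM in B cells, 1637 in lung, 2036 in kidney and 417 in liver in B6xC3H, so that 1 of the B6xPWK B cell libraries lay below B6xC3H lung and kidney. B6xSPRET lay between 389.8 and 9865 CPM (median 2584), a range that spans both hybrids. The log2 fold change was 2.85 ± 0.62 (SE, adjusted p = 0.016), and 2.46 (adjusted p = 0.067) without the B6xC3H B cell library. Gm42923, which lies opposite Fgf2 and Gm43439 without exon overlap, rested on lung and liver. It had 6.87 and 0 CPM in B cells, 353 in lung, 22 in kidney and 146 in liver in B6xPWK and 1.05 to 27 CPM in B6xC3H (log2 fold change 2.96 ± 0.62 (SE, adjusted p = 0.014)).

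The genes picked by rule were the 15 with the largest log2 fold change in each direction among called genes of 1 sign in all tissues, and Cyp2d22. The other called genes, among them Obox8, Pigr, Gm42031, Simc1, Gm15852, Gm10163 and Eif5, are described so that each of the 58 is accounted for, and were picked after their values were seen. Tagap1, a T-cell activation GTPase-activating protein opposite Gm49719, had 26.1 to 62.2 CPM in B6xPWK and 0 to 18.9 CPM in B6xC3H, without overlap (2.02 ± 0.40 (SE, adjusted p = 0.0094)). Ankrd6, an ankyrin repeat protein, lies opposite Gm11941 without exon overlap. It had 20.9 to 106 CPM in B6xPWK and 0 to 29.9 CPM in B6xC3H (1.88 ± 0.37 (SE, adjusted p = 0.0089)), and did not pass without the B6xC3H B cell library (adjusted p = 0.092). Tnr, which encodes tenascin-R, lies opposite an exon of Gm38039. It was highest in the B6xPWK B cells, with 351 and 192 CPM against 16.8 CPM in B6xC3H B cells (3.48 ± 0.73 (SE, adjusted p = 0.016)), and did not pass without the B6xC3H B cell library (log2 fold change 3.02 (adjusted p = 0.27)). Gadl1, a decarboxylase-like protein opposite Gm9385, had 77.3 to 611 CPM in B6xPWK and 38.6 to 221 CPM in B6xC3H (1.38 ± 0.31 (SE, adjusted p = 0.018)), and Gpr182, an atypical chemokine receptor opposite Zbtb39, had 47 to 119 CPM in B6xPWK and 20.5 to 33.7 CPM in B6xC3H, without overlap (1.40 ± 0.33 (SE, adjusted p = 0.026)). Gpr182 passed neither without the B6xC3H B cell library (adjusted p = 0.17) nor with opposite strands summed (adjusted p = 0.099). Gm47854, opposite Gm7293, and Gm45703, opposite Gm5131, were highest in B6xPWK kidney and liver, with 1013 and 1529.6 CPM for the first and 198 and 120.1 CPM for the second. The other higher genes were Fam208b (opposite Gdi2), Gm8774, Anapc15 (opposite Tomt), BE692007 (opposite Ms4a6c), Spdya (opposite Trmt61b), Gm27194 (opposite Wsb2-ps and Zfp286), Gm28818 and 4933431E20Rik (opposite Eps8l3 and Gstm5), with log2 fold changes of 1.45 to 2.99. Of these 8, Gm27194 alone passed without the B6xC3H B cell library, and the others had adjusted p-values of 0.099 (Fam208b), 0.17 (Gm8774), 0.089 (Anapc15), 0.51 (BE692007), 0.25 (Spdya), 0.064 (Gm28818) and 0.069 (4933431E20Rik). With opposite strands summed, Gm8774 and Spdya passed and the other 6 did not (adjusted p = 0.054 to 0.78). Gm8774, which lies opposite BC035044 without exon overlap, and Gm28818 have no exon opposite. Their counts were unchanged by the summing, so that fit does not bear on the other strand for them. The lower genes not described elsewhere were Gm20536, opposite Tgoln1 (-1.22 ± 0.30 (SE, adjusted p = 0.043)), and Gm44313, opposite Hist3h2a and Trim17 (-2.05 ± 0.51 (SE, adjusted p = 0.046)). Neither passed without the B6xC3H B cell library (adjusted p = 0.2 and 0.68) or with opposite strands summed (adjusted p = 0.054 and 0.99).

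Among the lower genes, the most abundant was Gm10252, on the forward strand of chr7:45459469-45460300, opposite Ftl1. Ftl1 encodes the light chain of ferritin, the iron store of cells. Gm10252 had 2175 and 3749 CPM in B cells, 1639.8 in lung, 19288 in kidney and 44270.4 in liver in B6xPWK. In B6xC3H it had 13274 CPM in B cells, 12718 in lung, 51541 in kidney and 68025 in liver, higher in each of the 4 tissues, by the least in liver, and B6xSPRET lay between 3232 and 51521 CPM (median 19662). Gm10252 had a log2 fold change of -1.73 ± 0.43 (SE, adjusted p = 0.038). It did not pass without the B6xC3H B cell library (log2 fold change -1.47 (adjusted p = 0.19)) and passed in 8 of 18 alternative fits.

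Slc5a2 encodes the glucose transporter SGLT2 of the proximal tubule, and its exons lie opposite BC017158. It had 51.5 and 42.6 CPM in B cells, 69.7 in lung, 103 in kidney and 141 in liver in B6xPWK. It had 117 CPM in B cells, 199 in lung, 237 in kidney and 308 in liver in B6xC3H, so its level was not highest in kidney in either hybrid. Slc5a2 had a log2 fold change of -1.28 ± 0.27 (SE, adjusted p = 0.015), and the difference was even over tissues, from -1.45 to -1.10 on the log2 scale. Neurl2 lies opposite Ctsa, the lysosomal cathepsin A, and had 13.6 to 73.1 CPM in B6xPWK and 29 to 164 CPM in B6xC3H (-1.41 ± 0.33 (SE, adjusted p = 0.026)), and did not pass without the B6xC3H B cell library (adjusted p = 0.1). Gm16867 lies opposite Entpd4, a nucleotide phosphatase of the Golgi, and the genes Gm37847, Gm21451 and Gm27175, and had 0 to 13.2 CPM in B6xPWK and 6.31 to 73.5 CPM in B6xC3H (-3.26 ± 0.70 (SE, adjusted p = 0.016)). With opposite strands summed, Slc5a2, Neurl2 and Gm16867 did not pass (adjusted p = 0.14, 0.25 and 0.86).

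Other lower genes with no gene opposite were Phyhd1, Magt1, Hmgb3, Stk24 and Rps24. Phyhd1, a phytanoyl-CoA dioxygenase domain protein, did not overlap (5.22 to 16.4 CPM in B6xPWK and 33.7 to 68.4 CPM in B6xC3H, -1.72 ± 0.39 (SE, adjusted p = 0.021)), and B6xSPRET lay between 7.61 and 18.1 CPM (median 10.2), near B6xPWK. Magt1 and Hmgb3 are both X-linked, the first a magnesium transporter and subunit of oligosaccharyltransferase, the second a high-mobility group protein. Magt1 had 3.03 to 10.4 CPM in B6xPWK and 8.42 to 116 CPM in B6xC3H (-2.36 ± 0.54 (SE, adjusted p = 0.022)), with B cells level between the hybrids, and Hmgb3 had 0 to 10.6 CPM in B6xPWK and 6.84 to 36.7 CPM in B6xC3H (-2.02 ± 0.48 (SE, adjusted p = 0.029)). Stk24, a kinase of the Ste20 family, had 1.72 to 33.3 CPM in B6xPWK and 11.6 to 129.4 CPM in B6xC3H (-1.71 ± 0.42 (SE, adjusted p = 0.038)). Hmgb3 and Stk24 did not pass without the B6xC3H B cell library (adjusted p = 0.069 and 0.099). Rps24 encodes a protein of the small ribosomal subunit and has processed copies in the genome. It had 8.81 to 54 CPM in B6xPWK and 17.4 to 226 CPM in B6xC3H, and its highest value was that of the B6xC3H B cell library, without which it did not pass (log2 fold change -0.84 (adjusted p = 0.58)).

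3 lower genes of little known function were Gm14048, Gm20663 and Gm48116. Gm14048, a processed pseudogene opposite A730017L22Rik, had 37.7 to 109.6 CPM in B6xPWK and 92.7 to 547 CPM in B6xC3H (-1.67 ± 0.28 (SE, adjusted p = 0.0015)). With opposite strands summed its log2 fold change was -0.39 (adjusted p = 0.58). Gm20663, opposite Gm4070, had 10.4 to 156 CPM in B6xPWK and 27.4 to 663 CPM in B6xC3H (-1.76 ± 0.32 (SE, adjusted p = 0.0035)), with its highest value in the B6xC3H B cell library, without which it did not pass (log2 fold change -1.47 (adjusted p = 0.079)). Gm48116, opposite Gm6436, had 6.06 to 81.9 CPM in B6xPWK and 29 to 526 CPM in B6xC3H (-2.49 ± 0.55 (SE, adjusted p = 0.017)), and without the B6xC3H B cell library its log2 fold change was -1.41 (adjusted p = 0.39). Gm15852, opposite an exon of Ccdc190, and Gm10163, with 2 and 3 counts in all of B6xPWK, had ratios of summed counts, B6xPWK over B6xC3H, of 0.0391 (95% counting interval 0.00458 to 0.15) and 0.0367 (0.00739 to 0.112). Gm10163 lies opposite Snx14 without exon overlap, and without the B6xC3H B cell library it did not pass (adjusted p = 0.12).

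The genes named by rule had 1 sign in all tissues because the rule chose them so, and differed between tissues in size. On the log2 scale Als2cr12 differed by 4.01 to 5.51 in the 4 tissues, and Trim12c by -5.15 to -2.69. Gm19684 differed by 4.27 in kidney and 0.23 in B cells, and Magt1 by -3.01 in liver and -0.13 in B cells. Cyp2d22 differed by 2.20 in lung, 1.60 in kidney and 2.67 in liver against 0.24 in B cells. These differences add a prior count of 2 to each library and so understate the change of genes near 0.

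**Figure D3:**
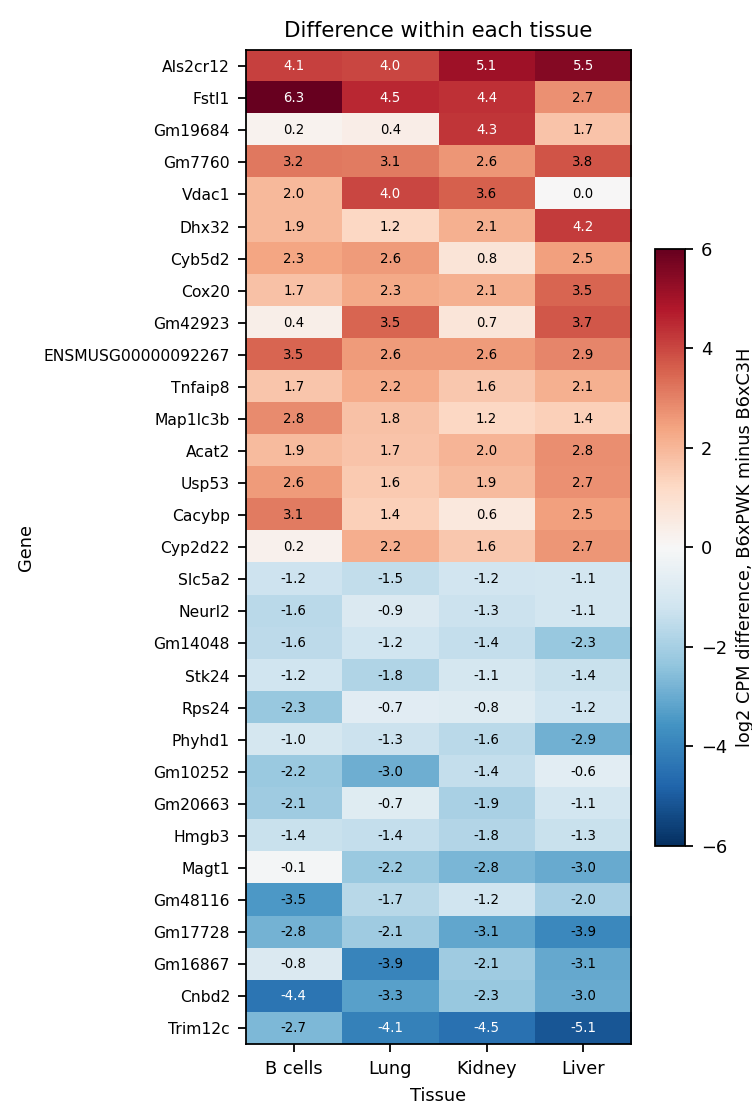
Difference of log2 CPM (prior count 2), B6xPWK minus B6xC3H, in B cells, lung, kidney and liver (columns) for the 15 genes with the largest positive and 15 with the largest negative log2 fold change that had 1 sign in all tissues and a mean of at least 5 CPM, and for Cyp2d22. Als2cr12 and Trim12c are strongly colored in each column, while Gm19684, Magt1, Gm42923 and Cyp2d22 are pale in B cells.

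Fitted tissue by tissue, with 12 groups of hybrid and tissue and 4 residual degrees of freedom, 13 liver genes passed (0.261%), 5 kidney genes (0.1%) and 15 lung genes (0.301%). For B cells the share was 2.59%, with 82 genes higher and 47 lower in B6xPWK. Of the genes passing, 4 (liver), 4 (kidney), 9 (lung) and 22 (B cells) were among the 58. Als2cr12 and Trim12c were the genes that passed in all 4 tissues, Cnbd2 passed in liver, lung and B cells, and Fstl1 in kidney, lung and B cells. The remaining gene of the kidney calls besides Gm19684 was mt-Nd4l. Pigr, the polymeric immunoglobulin receptor that carries IgA into bile, had 449 CPM in B6xPWK liver, 6131 in B6xC3H liver and 519 and 988 in B6xSPRET liver, and passed there (log2 fold change -3.77 ± 0.68, adjusted p = 0.0062) and over tissues (-2.64 ± 0.56 (SE, adjusted p = 0.015)). Emp2, epithelial membrane protein 2 of lung epithelium, had 30.3 CPM in B6xPWK lung, 228 in B6xC3H lung and 88.9 and 143 in B6xSPRET lung (lung log2 fold change -2.90 ± 0.63, adjusted p = 0.034), and passed over tissues (-3.18 ± 0.68 (SE, adjusted p = 0.017)). Copg2, opposite the imprinted gene Mest, had 28.8 CPM in B6xPWK lung and 212 in B6xC3H lung (-2.87 ± 0.59, adjusted p = 0.022), and did not pass over tissues (adjusted p = 0.41). AY036118, opposite Gm42418, a locus of ribosomal RNA sequence, had 3153 CPM in B6xPWK liver and 201665 in B6xC3H liver. In B6xSPRET liver it had 5524 and 59334 CPM, so its level also varied widely between libraries of the same hybrid and tissue. The part of single libraries in its difference was not tested.

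The B cell calls depended on single libraries. Without B6xPWK B cell replicate 1, 8 genes passed in B cells, and without replicate 2, 22. The lower ones included genes opposite histone genes, among them Gm44454 opposite Hist1h2ak (13.7 and 16.4 CPM in B6xPWK against 327 in B6xC3H), Gm44390 opposite Hist1h2ah (271 and 296 against 2042) and 4930558J22Rik opposite Hist1h4b (328 and 527 against 3102). Replication-dependent histone messengers lack a poly(A) tail and rise in S phase. The 24 genes opposite histone genes summed to 7373 and 7487 CPM in B6xPWK B cells, 32779 in B6xC3H B cells and 15685 in B6xSPRET B cells, and over tissues 2 of their 13 tested members passed, both lower in B6xPWK, against 0.442% of all genes tested that were called lower. They were Gm44454 and Gm44313, and neither passed without the B6xC3H B cell library. Of the 13, Gm44341 and Gm47311 held equal values in each of the 9 libraries, so the members are not all separate measurements. The share of dividing cells was not tested. Cd74, the invariant chain of MHC class II, had 29.2 and 55.7 CPM in B6xPWK B cells, 265 in B6xC3H and 28.9 in B6xSPRET (log2 fold change -2.63 ± 0.49, adjusted p = 0.0025).

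Without the B6xC3H B cell library, 38 of 5679 genes (0.669%) passed, 20 (0.352%) higher and 18 (0.317%) lower in B6xPWK, and 26 of them were among the 58. All 58 kept their sign. Gm44454, opposite Hist1h2ak, lost most, from -3.82 ± 0.65 (SE, adjusted p = 0.0024) to -1.55 (adjusted p = 0.65). Trim12c and Pigr grew, to -5.25 (adjusted p = 6e-07) and -3.37 (adjusted p = 5.3e-05), and Gm19684, Gm42031 and Simc1 also remained. Gm42031, a lincRNA on chromosome 8, had 34.4 to 118 CPM in B6xPWK and 0 to 19.3 CPM in B6xC3H, without overlap. Simc1, a SUMO-interacting protein opposite 4833439L19Rik, had 19.7 to 304 CPM in B6xPWK and 10.5 to 57.4 CPM in B6xC3H, highest in kidney.

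**Figure D4:**
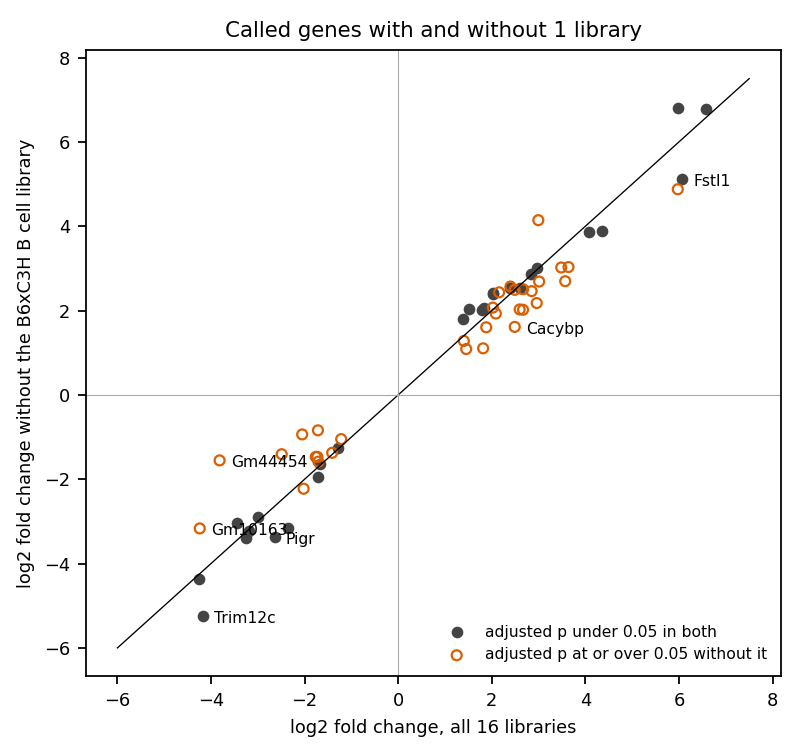
Log2 fold change of the 58 called genes with all 16 libraries (x axis) and without the B6xC3H B cell library (y axis), with the line of equality. All 58 points keep their sign, the 26 filled points passed in both fits, and Gm44454 moves from -3.82 to -1.55.

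The difference between the hybrids varied with tissue for 23 genes (0.462%), none of them among the 58. The 5 with the smallest p were Gm28439, Gm47313, Kdm1b, mt-Nd4l and Gm11991. Kdm1b encodes a histone demethylase, and its exons lie opposite Dek, a chromatin protein. It had 725 and 608 CPM in B cells, 429 in lung, 813 in kidney and 1002 in liver in B6xPWK. It had 7.37 CPM in B cells, 890.1 in lung, 811 in kidney and 1355 in liver in B6xC3H, where the B cell library alone was low. Gm11991, a processed pseudogene, had 11.6 CPM in B6xC3H B cells and 90.9 to 650.1 CPM in the other 8 libraries. Gm47313, opposite Gm20634 and Hist2h2aa1, had 1657 CPM in B6xC3H B cells and at most 83.5 in the others. Its values equalled those of Gm44341 and Gm47311, also opposite histone genes, except in B cells. There it had 0 against 68.8 CPM in B6xPWK replicate 2 and 1657 against 145 CPM in B6xC3H. Sharing of reads between these genes was not tested. Gm28439, an unprocessed pseudogene on chromosome 1, had no count in B6xPWK liver and B6xC3H B cells and 18448 CPM in B6xC3H liver. mt-Nd4l, a mitochondrially encoded subunit of complex I, had counts only in B6xPWK kidney (169.6 CPM) and B6xC3H liver (226 CPM) among the 9 libraries. It overlaps mt-Nd4 on the same strand, and mt-Co2, mt-Atp6 and mt-Nd3 were also listed at 0 in 1 or more B cell or lung libraries, so a 0 of these genes is a listed value only. The same holds for Gm28439, as a pseudogene can share reads with related sequences, which was not tested. Gm10925, Gm28438 and Gm28661, also among the 23, were likewise listed at 0 in B6xPWK lung, and sharing of their reads was not tested. Over liver, kidney and lung alone, a fit chosen after the data were seen, 7 genes (0.141%) passed, Gm28439 and mt-Nd4l among them, and Kdm1b, Gm11991 and Gm47313 did not.

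**Figure D5:**
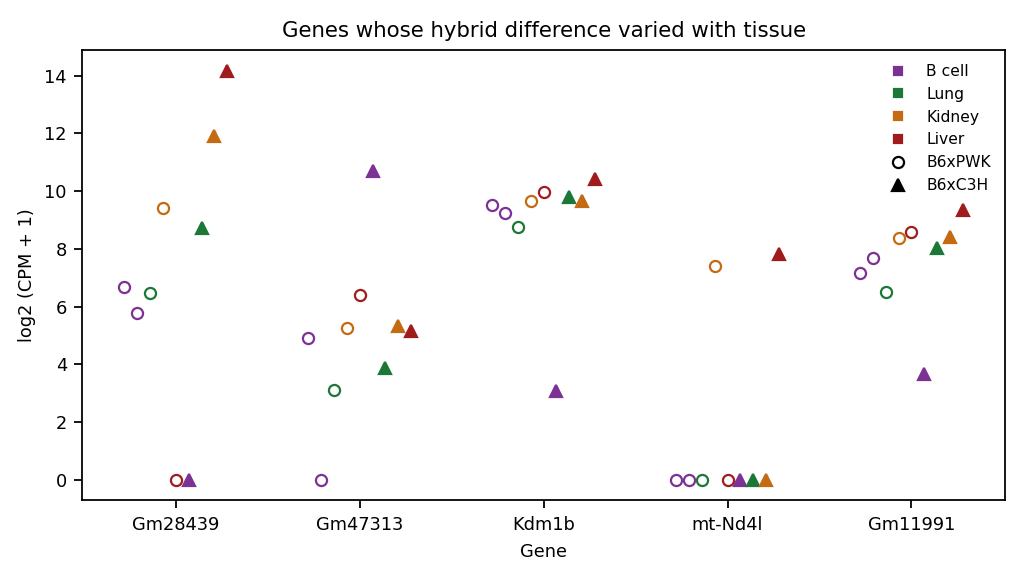
Level as log2 of CPM plus 1 (y axis) of the 5 genes with the smallest interaction p (x axis) in the 5 B6xPWK (open circles) and 4 B6xC3H libraries (filled triangles), colored by tissue. The purple triangle of B6xC3H B cells is the lowest point for Kdm1b and Gm11991 and the highest for Gm47313.

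Of 90 tested members of 15 gene lists drawn up for these tissues 1 passed, near the 1.17% called among all genes tested, and of 48 tested genes opposite a member none did. The member that passed was Cyp2d22, of the cytochrome P450 family of drug-metabolizing enzymes, which has no gene opposite. It had 5.15 and 6.55 CPM in B cells, 69.7 in lung, 44 in kidney and 67.9 in liver in B6xPWK. It had 4.21 CPM in B cells, 11.6 in lung, 11.5 in kidney and 6.84 in liver in B6xC3H, and B6xSPRET lay between 5.26 and 67.2 CPM (median 36.7). Cyp2d22 had a log2 fold change of 2.03 ± 0.48 (SE, adjusted p = 0.026), and 2.42 (adjusted p = 0.01) without the B6xC3H B cell library. The other 5 tested genes of the xenobiotic metabolism list had log2 fold changes of -2.36 (Cyp3a11, adjusted p = 0.23) to -0.27 (Sult1a1). The 9 tested MHC genes had a median of -0.68, against -0.31 for the 90 tested list members and -0.01 for all genes tested, with 0 called. Cd74 had -1.98 ± 0.54 (adjusted p = 0.077) and H2-K1, a classical class I gene, -1.41 ± 0.51 (adjusted p = 0.23).

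The 15 mitochondrial genes, all tested, had a median log2 fold change of -0.42 with 0 called, and mitochondrial genes held 0.793 to 6.55% of counts in B6xPWK and 0.387 to 9.48% in B6xC3H. The ratio of these shares was 0.807 (exact permutation test within tissues, two-sided, p = 0.54). No list of sex-biased liver genes (2 tested), clock genes (3), immediate early and heat shock genes (5), interferon-stimulated genes (4), imprinted genes (11), acute phase genes (7), complement and coagulation genes (8), noncoding hosts (6) or housekeeping genes (8) had a called member. None of the strain-polymorphic list was tested. Rn7sk, the 7SK small nuclear RNA, had -1.25 ± 0.35 (adjusted p = 0.088). Of the 9 lists of cell type markers, none of the 24 tested members and none of the 12 tested opposite genes passed. The T cell and endothelial lists had no tested member and no tested opposite gene. Alb had -1.19 ± 0.62 (adjusted p = 0.45), Sftpc, of lung surfactant, -1.93 ± 0.80 (adjusted p = 0.34), and Vpreb3, of pre-B cells, 1.09 ± 0.61 (adjusted p = 0.50).

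Of the sex-linked genes, Xist and Tsix were tested. Xist had 36 and 31 counts in B6xPWK B cells, 450.0 in lung, 32 in kidney and 26 in liver, and 6, 221, 16 and 15 counts in B6xC3H B cells, lung, kidney and liver (log2 fold change 0.96 ± 0.43, adjusted p = 0.38). Tsix had 0.55 ± 0.35 (adjusted p = 0.57). The Y-linked genes Ddx3y, Eif2s3y and Uty had no count in any of the 9 libraries, and Kdm5d had 0 to 2. Read as the other strand, the Tsix counts, 555 to 3428 in the 9 libraries, would be of Xist. On the counted strand the Y-linked counts do not tell the sex of the animals, which was not tested. Jpx and Ftx had 9 and 18 counts over B6xPWK and 1 and 6 over B6xC3H, too few to be tested.

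The 58 genes had some features that the test did not use. Protein-coding genes made up 37 of the 58 (63.8%) against 57.9% of genes tested, pseudogenes 4 (6.90% against 5.95%) and noncoding genes 16 (27.6% against 36.1%). An exon on the opposite strand was present for 33 (56.9% against 60.5%), and no gene at all was annotated opposite 21 (36.2% against 22.3%). The mean of B6xSPRET, weighting tissues equally, lay nearer to B6xC3H for 29 of the 58 and for 49.3% of genes tested. For Cnbd2 and Gm17728, B6xSPRET was with B6xC3H, and for Als2cr12 and Acat2 with B6xPWK. 2 pairs of called genes lay within 1 Mb of each other. Tnr, opposite Gm38039, and Cacybp, on chromosome 1 and 270638 bp apart, were both higher in B6xPWK, and neither passed without the B6xC3H B cell library. Trim12c and Gm47248, on chromosome 7 and 76580 bp apart, differed in opposite directions. Gm47248 lies on the reverse strand opposite an exon of Trim34a, another gene of the Trim cluster. It had 361 and 287 CPM in B cells, 109 in lung, 61.7 in kidney and 193 in liver in B6xPWK. It had 29.5 CPM in B cells, 59.9 in lung, 18.4 in kidney and 75.3 in liver in B6xC3H, with the largest gap in B cells (log2 fold change 1.81 ± 0.42 (SE, adjusted p = 0.024)). Without the B6xC3H B cell library it did not pass (log2 fold change 1.10 (adjusted p = 0.2)). Read as the other strand, counts of Gm47248 would be of Trim34a.

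The starts of the called genes were compared with DNase-seq hotspots, regions of open chromatin called by the authors at a false discovery rate of 5% on samples pooled per hybrid and tissue, so no replicate test was possible. Over 57 called genes and 4 tissues, a hotspot within 2 kb of the gene's start was present in both hybrids in 149 of 228 cases (65.4%), in B6xPWK only in 6 (2.63%), in B6xC3H only in 0 and in neither in 73 (32.0%). For all genes tested, the shares were 71.6, 4.60, 1.68 and 22.1%. B6xPWK had more hotspots in each tissue, with 134316 against 78387 in B cells. Als2cr12, Cnbd2, Scand1, Trim12c, Acat2 and Trim34a had a hotspot at their start in both hybrids in all 4 tissues, so the presence of a hotspot there did not differ although the counts did. Fstl1 had one in both hybrids in lung and kidney and in neither in liver and B cells. Gm7760 and Gm17728 had none in any tissue. The 6 cases of a hotspot in B6xPWK only were Gm42031 in B cells and lung, Pigr and Phyhd1 in B cells, Anapc15 in kidney and Gm27194 in kidney, of which Gm42031, Anapc15 and Gm27194 were higher in B6xPWK and Pigr and Phyhd1 lower.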

How the data were processed

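RNA-seq libraries were made from total RNA with spike-in controls by a stranded protocol, and per the labels the submitters' processing notes name Trimmomatic, STAR and RSEM. The deposited RNA tables hold, per gene and library, an expected count that RSEM estimated (not normalized) and TPM values, both made by the authors. The strand setting and annotation version of RSEM are not given in the sources used here. The DNase-seq hotspots deposited by the authors were called on mm10 at a false discovery rate of 5% from reads pooled per hybrid and tissue, with a −log10 of the false discovery rate per hotspot, and only their presence was used.

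Expected counts were rounded to whole numbers and fitted with edgeR 4.0.16 in R 4.3.3 (TMM scaling, filterByExpr, quasi-likelihood F test) on 16 libraries with tissue and hybrid as terms. The contrast was B6xPWK minus B6xC3H, with p-values adjusted by the Benjamini-Hochberg method over all genes tested and a threshold of 0.05. Contrasts within tissues and the interaction came from a fit of 12 hybrid and tissue groups. As most groups hold 1 library, the spread there is assumed to be that of the groups with 2. Single values were tested by exact permutation within tissues. The library totals of 283708 to 809317 counts are low, so genes of few counts were measured with little precision, and intervals and floors cover counting error only.

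Genes were named by rule as the 15 with the largest log2 fold change in each direction among those called, averaging 5 CPM or more and of 1 sign in all 4 tissues, called members of the lists (at most 4 a list), the 5 smallest interaction p-values and the sex-linked list. Members and lists were chosen with earlier results of these data known. 1 RNA-seq library was left out because its strain differs between the labels and the study's table. Alternatives used DESeq2 1.42.0 and limma 3.58.1 (log2 of TPM + 1), other filters, sample sets and scalings, and counts summed over genes with exons on opposite strands. The fit of tissue and hybrid was checked on simulated data.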

Additional observations from a re-analysis of the deposited data

Results flagged for a closer look

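The difference between B6xPWK and B6xC3H varied with tissue for 23 genes, by an interaction term in edgeR's quasi-likelihood test over the 12 groups of hybrid and tissue, which has 4 residual degrees of freedom. In 10 of the 23 the B6xC3H B cell library held the most extreme value of the 9 libraries. Of the 23, 3 lie opposite histone genes and 2 are encoded in the mitochondrial genome. The 5 with the smallest p were Gm28439 (adjusted p = 0.00041), Gm47313 opposite Gm20634 and Hist2h2aa1 (adjusted p = 0.00048), Kdm1b opposite Dek (adjusted p = 0.00048), mt-Nd4l (adjusted p = 0.00055) and Gm11991 (adjusted p = 0.0014). Over liver, kidney and lung, a fit chosen after the data were seen, the adjusted p was 0.020 for Gm28439 and 0.00063 for mt-Nd4l, and 1.0 for Kdm1b, Gm47313 and Gm11991. Each of these contrasts sets 1 library against 1, or 2 against 1 in B cells, and the part of single libraries in them was not tested further. Sharing of reads between the pseudogene Gm28439 and related sequences was not tested either. The same holds for Gm47313 and for Gm10925, Gm28438 and Gm28661, also among the 23. Gm10925, Gm28438 and Gm28661 had no count in B6xPWK lung and 676, 172 and 458 CPM in B6xC3H lung.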

How the results depend on the processing

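Of 1171 values of single genes under the alternatives, 831 kept direction and side of the threshold, 338 kept direction but no longer passed, and 2 reversed, both with counts summed over opposite strands (Anapc15 at -0.21 with adjusted p = 0.78, Gm44313 at 0.028 with adjusted p = 0.99). Against 58 genes called (36 higher, 22 lower), limma on log2(TPM + 1) called 15 (12 and 3), no filter on low counts 191 (115 and 76), the 9 libraries alone 99 (63 and 36), the library number as a covariate 12 (7 and 5) and summed strands 37 (22 higher). The DESeq2 Wald test called 35 lower genes. Leaving out 1 library gave 36 to 64 called, 20 to 42 higher and 13 to 23 lower, the lowest without B6xPWK B cell replicate 1 (36) and without the B6xC3H B cell library (38). limma moved the median of all genes by 0.33 (log2), and 80.0% of its calls were higher. The interaction called 4 genes with limma and 7 over liver, kidney and lung. Calls in liver were 8 with a minimum of 10 counts in 4 libraries, in kidney 3 with limma, in lung 9 with DESeq2 size factors, 9 with that minimum and 7 with limma, and in B cells 5 with limma, 8 without B6xPWK replicate 1 and 22 without replicate 2. Within 500 bp, a hotspot in B6xPWK only was found in 3 cases and in B6xC3H only in 1. The causes were not tested. No paired analysis was possible because the replicate numbers only name libraries and the hybrids share 1 number per tissue.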
